A study of Mus musculus with 3 samples.

Results

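MHC class II genes and their transactivator were followed in RNA bound to chromatin of mouse macrophages. The set has 7 members of the 55536 genes in the annotation: Cd74, H2-Aa, H2-Ab1, H2-Eb1, H2-DMa, H2-DMb1 and Ciita. They were taken by gene symbol, with no measured value used in the choice. The cells were bone-marrow-derived macrophages, primary cells of the C57BL/6J strain grown from bone marrow. They were treated with 100 ng per ml of Lipid A, a bacterial lipopolysaccharide component sensed by TLR4, for 12 h, kept without it for 12 h, and taken at 0 min of a second exposure. Total RNA was sequenced after ribosomal RNA depletion from 3 libraries of this 1 group, labelled biological replicates 1, 2 and 3. No untreated, unwashed or later library was analysed here, so the values are levels and cannot be read as a response. All 3 libraries carry 1 donor identifier and no label says whether they came from separate animals, so the spread between them may be partly technical.

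MHC class II molecules present peptides taken up from outside the cell to CD4+ T cells. Their alpha and beta chains assemble with the invariant chain, which holds the groove until proteases degrade it in endosomes. The DM molecule then exchanges the remaining invariant chain fragment for peptide. Transcription of these genes is known to depend on CIITA, a coactivator that does not bind DNA itself and is recruited by factors sitting on the X and Y boxes upstream of each class II gene. In macrophages the pathway is best known for its induction by interferon gamma.

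Replicates 1, 2 and 3 held 11958978, 17283529 and 19475027 expected counts. The macrophage identity of the label was checked with 10 macrophage markers. In every library 9 of these reached 1 TPM, and the 10 levels summed to 789, 1035 and 936 TPM in replicates 1, 2 and 3. TPM is a level per transcript length, scaled to the same sum over all transcripts of a library. Replicate 3 stood apart in 11 stromal markers, which summed to 1.30 and 2.57 TPM in replicates 1 and 2 and to 596 TPM in replicate 3. Of 10 B cell markers only Cd22 reached 1 TPM in every library, and the list summed to 9.56, 12.9 and 4.60 TPM. Pax5 was at 0, 0 and 0.01 TPM, and Blk and Vpreb3 were listed at 0 in all 3 libraries. Of 10 dendritic cell markers, 3 reached 1 TPM in every library, and the list summed to 9.25, 12.3 and 8.14 TPM. The highest was Batf3, at 4.41, 8.11 and 4.26 TPM, and Itgae was at 1.11, 1.04 and 1.04 TPM and Clec9a at 1.37, 1.11 and 0.66 TPM. Flt3 was at 0.07, 0 and 0.05 TPM, Zbtb46 at 1.63, 1.48 and 1.60 TPM, and Cd209a was listed at 0. In the read-based table the B cell list summed to 38.9, 26.0 and 27.6 TPM, with Fcer2a at 20.2, 15.0 and 17.3 TPM and Ebf1 at 3.78, 1.94 and 3.44 TPM, and the dendritic cell list to 25.3, 25.4 and 19.5 TPM. The part of such cells in the member levels was not tested. In bulk RNA, fewer cells of a type and less RNA per cell cannot be told apart.

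Promoter letters are shown first, because X and Y boxes are known to recruit the regulators of class II genes. Promoter sequences are RefSeq entries on GRCm38.p6, the coordinate build of mm10, and cover 250 bases before to 50 bases after the start. Of 12 class II genes looked up, 8 had an entry, with 9 entries in all, and 4 of the 7 members were among them, H2-Aa, H2-Eb1, H2-DMa and H2-DMb1. The letters AACNGATG were searched for the X box and GATTGG for the Y box, on both strands, after these promoters had been read. The matches do not overlap each other. H2-Eb1 and H2-Aa are shown as members, and H2-Eb2 and H2-DMb2 as the near neighbours of H2-Eb1 and H2-DMb1 that were below 1 TPM in the alignment-based table. The 4 stretches below run 5′ to 3′ on the gene's strand from 150 to 26 bases before the start, and capitals mark X or Y box letters, including the Y box reversed as CCAATC.
H2-Eb1 promoter (chr17:34305717-34305841, plus strand): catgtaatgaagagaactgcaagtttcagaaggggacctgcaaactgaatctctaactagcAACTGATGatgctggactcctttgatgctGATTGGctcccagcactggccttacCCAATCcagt
H2-Eb2 promoter (chr17:34325525-34325649, plus strand): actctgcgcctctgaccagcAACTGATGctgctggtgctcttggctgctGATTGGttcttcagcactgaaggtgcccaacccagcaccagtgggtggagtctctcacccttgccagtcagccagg
H2-DMb2 promoter (chr17:34145099-34145223, plus strand): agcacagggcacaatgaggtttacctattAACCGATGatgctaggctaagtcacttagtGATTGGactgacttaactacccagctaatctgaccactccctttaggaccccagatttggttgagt
H2-Aa promoter (chr17:34287849-34287973, minus strand): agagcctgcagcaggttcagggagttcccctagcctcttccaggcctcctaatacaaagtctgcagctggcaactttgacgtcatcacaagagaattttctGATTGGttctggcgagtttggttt

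H2-Eb1 carried the X box letters 89 bases and the Y box letters 60 bases before its start, with another Y box match on the opposite strand at 35 bases. H2-DMb1, whose stretch is not printed because 94 of its 125 bases lie in an annotated exon, carried AACTGATG at 92 and GATTGG at 62 bases before the start. The X-to-Y distance was thus 29 bases in H2-Eb1 and H2-Eb2 and 30 bases in H2-DMb1 and H2-DMb2. Y box letters stood in 8 of the 9 class II entries and X box letters in 4, against 16.1% and 2.32% of the 32851 promoters of the same length. X box letters followed by Y box letters within 40 bases on the same strand stood in these 4 entries. Over all entries, 10 promoters had that arrangement (0.0304%), the other 6 belonging to BC051142, Fgd4, G3bp2, H2-M10.4, Scgb2b20 and Sf1. As the letters were searched after the class II promoters had been read, these shares are descriptions and no test of enrichment. H2-Aa had Y box letters at 49 bases and no match to the X box letters in this window. Of the 2 H2-DMa entries, the upstream entry had neither motif, and the other had Y box letters at 199 bases. A match is a description of letters and not a bound site. A box with other letters is missed by this search, so an entry without a match, such as H2-Aa for the X box, may still hold one.

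**Figure D1:**
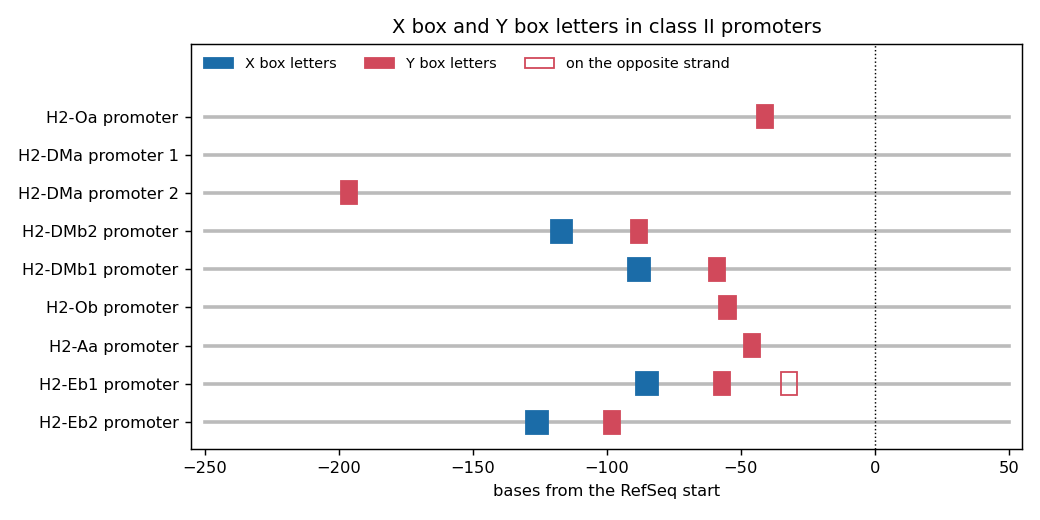
Positions of X box letters (blue) and Y box letters (red) in the 9 RefSeq promoter entries of class II genes, in bases from the start (dotted line). Open boxes are matches on the opposite strand. The 4 entries of the H2-DMb and H2-Eb pairs hold X box letters 29 or 30 bases before Y box letters.

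All 7 members were detected at 1 TPM or more in every library, as were 46.1% of 22028 protein-coding genes. Their mean levels ranged between 3.48 and 20.2 TPM, with 2 members at a mean of 10 TPM or more (27.2% of protein-coding genes) and 0 at 100 TPM or more (2.57%). The 7 levels summed to 68.7, 62.0 and 57.9 TPM in replicates 1, 2 and 3. By mean TPM the order was H2-DMa, Cd74, H2-Ab1, Ciita, H2-Aa, H2-DMb1 and H2-Eb1. Of the 6 neighbouring pairs in that order, the ranges over libraries did not overlap for Cd74 above H2-Ab1 and for H2-Aa above H2-DMb1. They overlapped for the other 4 pairs. In read-based TPM the order was Cd74, H2-DMa, Ciita, H2-Ab1, H2-DMb1, H2-Aa and H2-Eb1. H2-DMb1 averaged 8.08 TPM there and H2-Aa 6.78 TPM, with overlapping ranges, so the order of this pair depends on the table.

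**Figure D2:**
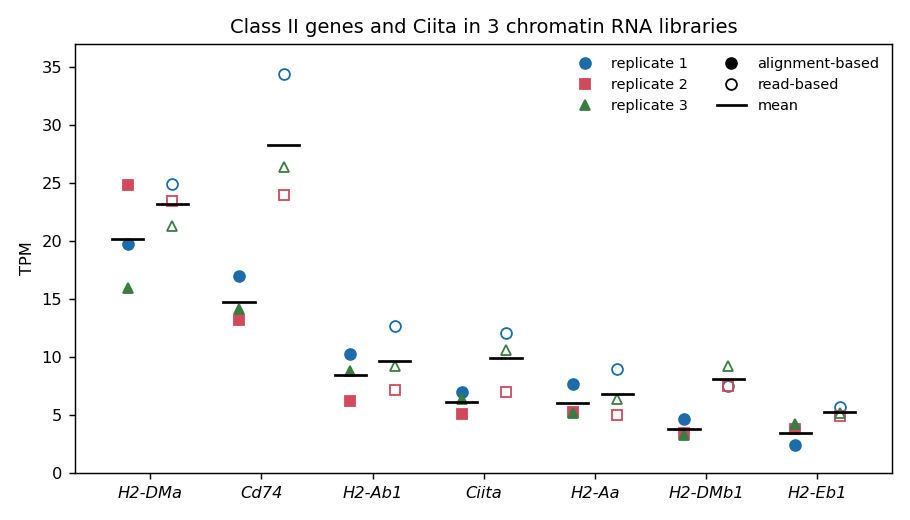
Level in TPM of each member in replicates 1 to 3 from the alignment-based gene table (filled) and the read-based transcript table summed per gene (open), with the mean as a bar. The members lie between 2.44 and 24.8 TPM in the alignment-based table. The read-based mean of Cd74 is 28.3 TPM, against 14.8 TPM alignment-based.

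Of the antigen-binding chains, those of the I-A molecule are described first. H2-Ab1, the beta chain of the I-A molecule (chr17:34257689-34269419), had levels of 10.3, 6.18 and 8.83 TPM in the 3 replicates, with expected counts of 72, 48 and 85 (8.44 ± 2.09 TPM, SD, n = 3). H2-Aa, its alpha chain partner (chr17:34282744-34287823), was at 7.67, 5.28 and 5.18 TPM, from 189, 130 and 198 counts (6.04 ± 1.41 TPM, SD, n = 3). Both were highest in replicate 1. The ratio of H2-Aa to H2-Ab1 was 0.74, 0.85 and 0.59 in the 3 libraries and 0.70 in each by the read-based table, so over all isoforms the alpha chain gene was below the beta chain gene in every library. By protein-coding isoforms alone the order turned in replicates 1 and 2, with H2-Aa at 2.76, 1.48 and 1.61 TPM and H2-Ab1 at 1.64, 1.18 and 1.85 TPM. H2-Eb1, the beta chain of I-E (chr17:34305867-34316674), was the lowest member, at 2.44, 3.83 and 4.18 TPM from 33, 50 and 55 counts (3.48 ± 0.92 TPM, SD, n = 3). It lay lowest in replicate 1, unlike its I-A neighbours. By the read-based table H2-Eb1 was highest in replicate 1, at 5.66, 4.94 and 5.13 TPM in the 3 replicates. Its partner chain gene is the pseudogene H2-Ea-ps, which was listed at 0 in all 3 libraries. C57BL/6 mice are known to lack a functional I-E alpha chain for want of an intact Ea gene.

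Cd74 encodes the invariant chain, the chaperone that keeps class II grooves empty of peptide until they reach endosomes (chromosome 18). Its level was 16.99, 13.2 and 14.1 TPM, from 175, 152 and 207 counts (14.8 ± 1.96 TPM, SD, n = 3). It was 1.65, 2.14 and 1.60 times the level of H2-Ab1 in replicates 1, 2 and 3. All 3 Cd74 values lay above all values of H2-Ab1, H2-Aa, H2-Eb1, H2-DMb1 and Ciita in the alignment-based table.

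The peptide-exchange molecule DM is a pair of chains. H2-DMa, its alpha chain (chr17:34119541-34139101), was at 19.8, 24.8 and 15.9 TPM from 86.8, 125 and 140 counts (20.2 ± 4.47 TPM, SD, n = 3). This was the highest mean of the 7 in the alignment-based table, and by the read-based table H2-DMa averaged 23.2 TPM, below Cd74 at 28.3 TPM. H2-DMb1, a beta chain of DM (chr17:34153072-34160230), was at 4.62, 3.48 and 3.31 TPM from 46.7, 46.7 and 65.8 counts (3.8 ± 0.71 TPM, SD, n = 3). H2-DMa had 4.28, 7.14 and 4.81 times the level of H2-DMb1, and 3.31, 3.13 and 2.30 times by the read-based table. That ratio rests on which H2-DMa isoforms are counted. Isoform H2-DMa-203, a non-coding transcript of 350 bases with 0 exonic bases of its own, held 13.4, 15.3 and 6.98 TPM of the gene's level from 23.3, 21.9 and 13.8 counts. Without it H2-DMa was at 6.40, 9.55 and 8.95 TPM. Its protein-coding isoforms alone summed to 2.09, 3.37 and 3.51 TPM, beside 2.86, 2.76 and 3.31 TPM for the coding isoform of H2-DMb1. By the read-based table these coding levels averaged 1.96 TPM for H2-DMa and 2.79 TPM for H2-DMb1.

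H2-DMa also lies across the start of Brd2, a bromodomain gene on the opposite strand, with 3094 bases in common. Brd2 was at 194 ± 9.50 TPM (SD, n = 3). The counts of H2-DMa, Brd2 and a short antisense gene inside the overlap were fractional, and the 3 summed to the whole numbers 3156, 4362 and 5178. Psmb9 and Tap1, also on opposite strands, likewise summed to 4455, 5985 and 5617. Counts that are whole only as a sum mark reads divided between genes, here between strands, so sense and antisense reads cannot be told apart in these values. The part of Brd2 reads in the level of H2-DMa was not tested.

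H2-DMb1 shares reads with its neighbour H2-DMb2, a near-identical beta chain gene. The counts of the pair summed to the whole numbers 52, 56 and 77, of which H2-DMb2 was given 5.27, 9.31 and 11.2. The coding sequences of H2-DMb1-201 and H2-DMb2-201 are 783 bases each and identical at 751 of them (95.9%). Their 150 bases with the most differences, coding bases 171 to 320 of both from the GENCODE M21 transcripts, are shown because only reads over such differences separate the genes. Capitals mark the 23 bases that differ.
H2-DMb1-201: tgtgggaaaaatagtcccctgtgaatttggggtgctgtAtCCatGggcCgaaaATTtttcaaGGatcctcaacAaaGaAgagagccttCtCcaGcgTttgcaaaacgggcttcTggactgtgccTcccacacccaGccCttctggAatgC
H2-DMb2-201: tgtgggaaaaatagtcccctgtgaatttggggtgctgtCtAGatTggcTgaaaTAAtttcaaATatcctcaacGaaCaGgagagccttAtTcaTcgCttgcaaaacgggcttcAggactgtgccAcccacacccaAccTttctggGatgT

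At 0.37, 0.58 and 0.56 TPM, H2-DMb2 was below 1 TPM in every library of the alignment-based table, and at 1.65, 2.26 and 1.79 TPM by the read-based table. H2-DMb1 had 12.5, 6.00 and 5.91 times its level by the alignment-based split and 4.57, 3.31 and 5.15 times by the read-based split. The split is the authors' estimate, and both levels are uncertain for that reason.

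Ciita, the transactivator (chr16:10480059-10528418), was at 6.95, 5.11 and 6.35 TPM from 262, 254 and 351 counts (6.14 ± 0.94 TPM, SD, n = 3). Its level thus overlapped those of its targets H2-Aa and H2-Ab1. It was below H2-Ab1 in all 3 libraries of the alignment-based table, at 0.67, 0.83 and 0.72 times. By the read-based table the ratios were 0.95, 0.98 and 1.15, so the order of this pair was not the same in the 3 libraries there. Dexi, on the opposite strand, shares 25888 bases of the locus with Ciita and was at 3.47 ± 0.31 TPM (SD, n = 3).

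Ciita is known to use alternative promoters, called pI, pIII and pIV in order along the gene, which are best known for dendritic cells, lymphoid cells and interferon gamma-treated cells. The 8 annotated transcripts start in 3 groups that follow this order, 8119 and 1568 bases apart. The most upstream group (chr16:10480059-10480164) held 19.9%, 9.6% and 19.3% of the gene's counts (16.3 ± 5.8%, SD, n = 3). The middle group (chr16:10488178-10488279) held 61.3%, 73.3% and 65.8% (66.8 ± 6.1%). The most downstream group (chr16:10489746-10489783) held 18.8%, 17.1% and 14.9% (16.9 ± 1.9%). The middle group was highest in every library, and the other groups overlapped each other. By the read-based table the means were 16.4%, 65.8% and 17.9%.

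These shares do not count reads at the starts alone. Exonic bases that belong to a single group number 368, 247 and 119 in first exons, and 503, 2663 and 1538 elsewhere. The full-length transcript Ciita-201 of the middle group took 113, 169 and 191 counts, and it has 1992 exonic bases that no other isoform has. It runs to chr16:10528418, past all other transcripts, which end at 10526426 or before. Reads in that 3′ stretch tell nothing of the start used, so the share of the middle group does not measure promoter use. In the upstream group, the retained-intron isoform Ciita-207 took 52.2, 20.8 and 53.2 counts, and the coding isoforms of that group took at most 14.5. In the downstream group, Ciita-204, an isoform of 1620 bases, took 37, 33 and 49 counts, and full-length Ciita-203 took 11.1, 9.25 and 0.

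Cd74 has 2 main coding isoforms, the shorter Cd74-201 and a longer form. The longer form holds an internal coding exon of 192 bases, or 64 codons, that the shorter lacks. This exon is known to encode a thyroglobulin-type domain that binds cathepsin L. The long form made up 20.5%, 26.1% and 28.3% of the pair's TPM in the alignment-based table (25 ± 4.0%, SD, n = 3). By the read-based table it was 46.1%, 48.6% and 49.4% (48.0 ± 1.7%). The tables thus place its share differently in every library by more than the spread within either.

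Isoforms that keep an intron are of interest in chromatin RNA, which includes transcripts not yet fully spliced. In H2-Aa the retained-intron isoform H2-Aa-203 held 84.1%, 81.8% and 86.9% of the gene's counts (84.3 ± 2.6%, SD, n = 3). This isoform has 2436 exonic bases that no other isoform has, out of 3223. In H2-Ab1, 4 retained-intron isoforms held 73.2%, 67.2% and 67.8% (69.4 ± 3.3%, SD, n = 3). The median over 6201 genes with such an isoform and at least 30 counts was 30.6%, and 95% of them were lower than H2-Aa and 86.1% lower than H2-Ab1. Counts rise with isoform length, and as shares of TPM the values were 57.3 ± 8.2% for H2-Aa and 81.3 ± 2.6% for H2-Ab1.

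The other members lay below that median. Cd74 had 17.5%, 17% and 16.3% of its counts in retained-intron isoforms, Ciita 19.9%, 8.2% and 15.2%, and H2-DMb1 13.8%, 5.5% and 0%. In H2-Eb1 the share was 0%, 21.4% and 45.9% in replicates 1, 2 and 3 (22.4 ± 23%), a spread as large as its mean. H2-DMa had 0%, 0% and 1.8%. By the read-based table H2-Aa was at 79.7 ± 2.1%, H2-Ab1 at 76.1 ± 3.7% and H2-Eb1 at 14.8 ± 1.6%, and Cd74 at 35.4 ± 1.7%, above the median of 33.2% there.

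**Figure D3:**
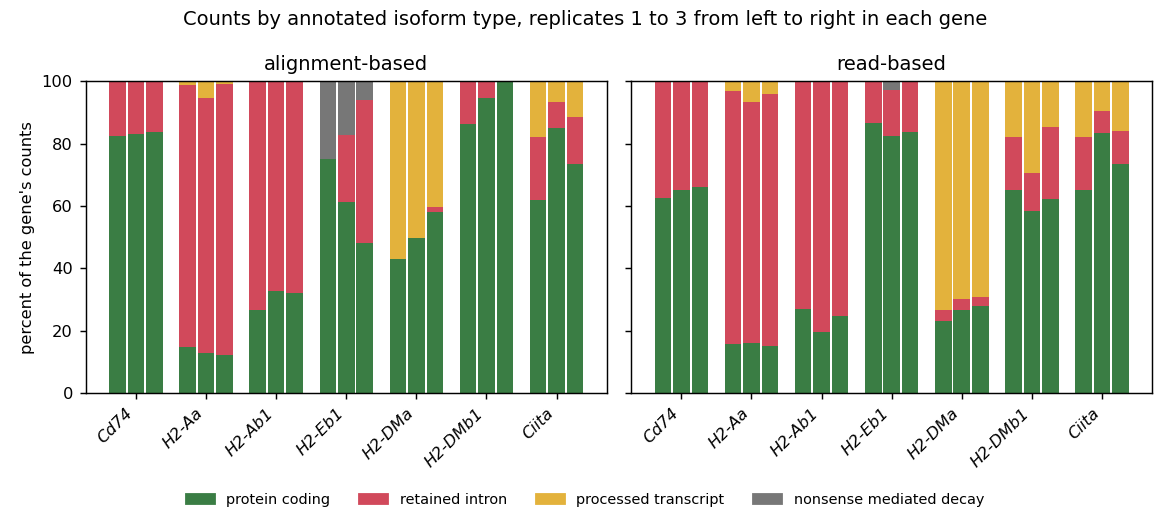
Percent of each member's counts by annotated isoform type, with replicates 1 to 3 from left to right as stacked bars, alignment-based on the left and read-based on the right. Retained-intron isoforms (red) take between 81.8% and 86.9% of H2-Aa alignment-based, and processed non-coding transcripts (yellow) take 40.1% to 56.9% of H2-DMa.

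Counting protein-coding isoforms alone changed the order of the members. Cd74 then stood at 11.7, 8.93 and 9.80 TPM (10.1 ± 1.39 TPM, SD, n = 3) and Ciita at 4.35, 4.25 and 4.64 TPM (4.41 ± 0.20 TPM). H2-DMa and H2-DMb1 were at 2.99 ± 0.78 and 2.98 ± 0.29 TPM. H2-Aa was at 1.95 ± 0.70, H2-Ab1 at 1.56 ± 0.34 and H2-Eb1 at 1.52 ± 0.21 TPM, with overlapping ranges. By this measure the invariant chain gene was above every other member in each library, and Ciita was above each of the 3 antigen-binding chain genes. By the read-based table the coding means were 12.5 TPM for Cd74 and 7.82 TPM for Ciita. H2-Eb1 followed at 3.70, H2-DMb1 at 2.79, H2-Aa at 2.37, H2-DMa at 1.96 and H2-Ab1 at 1.34 TPM. The order below Ciita thus depends on the table.

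The members were then compared between libraries. By TPM, 5 of the 7 were highest in replicate 1, as were 15.3% of 10150 protein-coding genes that reached 1 TPM throughout, of which 44.8% were highest in replicate 2 and 39.9% in replicate 3. These were Cd74, H2-Aa, H2-Ab1, H2-DMb1 and Ciita, all by the alignment-based table. After TMM scaling of the counts to CPM, a count scaled to library size and composition, the same 5 were highest in replicate 1, as were 35.0% of 14839 genes tested. H2-Aa was at 15.8, 7.98 and 9.92 CPM, H2-Ab1 at 6.02, 2.95 and 4.26 CPM, and Ciita at 21.9, 15.6 and 17.6 CPM. H2-DMa, in contrast, was at 7.27, 7.67 and 7.02 CPM and H2-Eb1 at 2.76, 3.07 and 2.76 CPM, so the library differences in their TPM were not seen in their scaled counts. Replicate 1 had the shallowest depth and the largest amount of starting RNA, 1 µg against 250 ng in replicate 2 and 500 ng in replicate 3. The part of either in these differences was not tested.

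Whether a member varied between libraries more than genes of like level was tested with edgeR's quasi-likelihood fit over all genes. With Benjamini-Hochberg adjustment, 0 of 7 members and 0 of 14839 genes (0.0%) passed a threshold of 0.05. The count filter asks for counts in all 3 libraries. Genes near 0 in a library, such as Col1a1 with 1, 34 and 14624 counts in replicates 1, 2 and 3, were not tested. At an unadjusted p under 0.05 the fit counted 747 genes (5.03%) and 0 members. H2-Aa had the smallest p of the members, 0.092 (edgeR, adjusted p = 0.99), with a quasi-dispersion 4.15 times the trend. H2-Ab1 followed at 0.19 and Cd74 at 0.25, both at an adjusted p of 0.99 by edgeR, while H2-DMa and H2-Eb1 were at 0.05 and 0.06 times the trend. In data simulated at this size the test recovered 4% of genes changed 2-fold in 1 library and 96% of those changed 4-fold. The simulated spread between libraries was smaller than the common coefficient of variation fitted here, 0.212. Only genes with higher counts were changed in the simulation, so recovery in these data may be lower. A difference of the size seen for H2-Aa between replicates 1 and 2 was thus mostly not detectable. Exact 95% Poisson intervals, which cover counting error only, ran from 6.62 to 8.84 TPM for H2-Aa in replicate 1 and from 4.48 to 5.95 TPM in replicate 3. For H2-Eb1, from 33 to 55 counts, they ran from 1.68 to 3.43 TPM in replicate 1 and from 3.15 to 5.44 TPM in replicate 3 and overlapped. The authors' own intervals for TPM, whose level is not stated, overlapped between replicates 1 and 3 for both H2-Aa and H2-Eb1.

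Member means were also taken without replicate 3, where stromal markers stood apart. H2-DMa was then at 22.3 TPM, Cd74 at 15.1, H2-Ab1 at 8.24, H2-Aa at 6.48, Ciita at 6.03, H2-DMb1 at 4.05 and H2-Eb1 at 3.14 TPM. Such means share libraries with those over all 3 and cannot differ from them by 1 SD, so they are a description. The part of stromal cells in the member levels was not tested. Of the 7, only H2-Eb1 had its highest TPM in replicate 3 in the alignment-based table. By the read-based table only H2-DMb1 did, at 7.52, 7.49 and 9.23 TPM. The other members were highest in replicate 1 there, but the share over all genes was not counted for read-based TPM.

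Among other class II genes, none reached 1 TPM in any library of the alignment-based table. H2-Oa and H2-Ob encode the DO molecule, an inhibitor of DM known from B cells, and took 3, 0 and 2 counts and 0, 1 and 1 counts. H2-Eb2 took 1, 0 and 0. A count of 0 allows up to 3 counts in a library, which is 0.22 TPM for H2-Oa and 0.18 TPM for H2-Ob in the libraries where each was at 0 counts. The DM genes were thus measured with DO genes near the floor. By the read-based table H2-Ob was at 5.41, 3.59 and 3.91 TPM, so the tables disagree on H2-Ob, as they do on H2-DMb2.

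The class II genes of chromosome 17 are interleaved with class I pathway genes and with Brd2. Between H2-Oa and H2-Ea-ps (chr17:34092340-34344645, 252 kb) lie 10 class II genes, 5 of them members, and 5 other protein-coding genes. The class II genes summed to 45.4, 44.2 and 38.2 TPM, and the other 5 to 407, 446 and 388 TPM, or 8.95, 10.1 and 10.1 times as much. The highest of these 5 was Brd2, the bromodomain gene and no class I pathway gene, at 194 ± 9.50 TPM (SD, n = 3). The others are Tap1 at 111 ± 15.3 TPM, Psmb9 at 44.7 ± 5.79, Psmb8 at 37.9 ± 2.00 and Tap2 at 25.2 ± 1.43 TPM (SD, n = 3). Tap1 and Tap2 form the peptide transporter of the class I pathway, and Psmb8 and Psmb9 are immunoproteasome subunits. In each library every class II gene was below the lowest of the 5, Tap2. The highest class II gene, H2-DMa, was at 19.8, 24.8 and 15.9 TPM, beside 23.7, 26.5 and 25.6 TPM for Tap2.

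**Figure D4:**
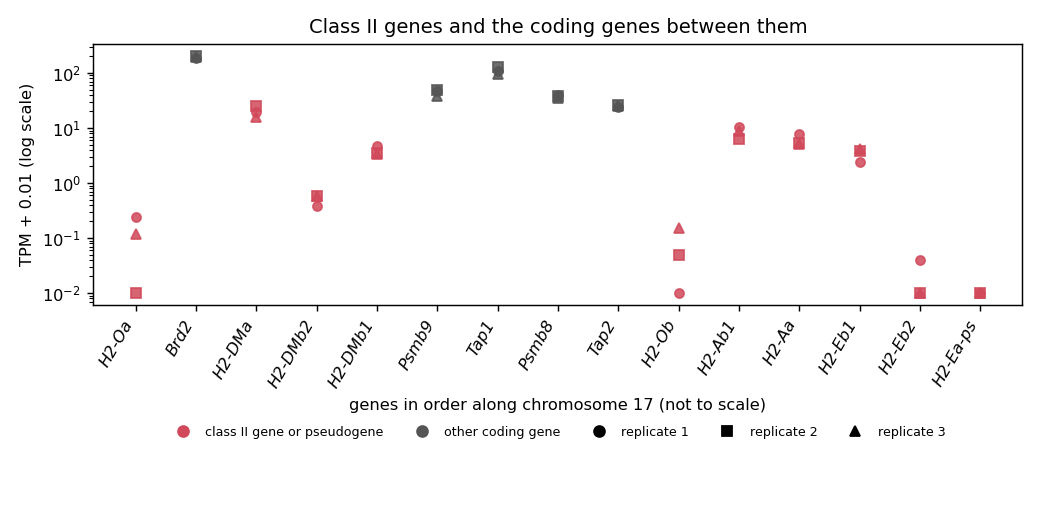
TPM plus 0.01 on a log scale for the class II genes (red) and the 5 other protein-coding genes (grey) of the chromosome 17 region, in genomic order, with a marker for each of 3 libraries. Class II genes lie between 0 and 24.8 TPM, and the 5 other genes between 23.7 and 205 TPM.

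The factors that act at class II promoters were detected throughout. The 7 members had a median of 6.14 TPM, and the 10 factors, which all reached 1 TPM in every library, a median of 18.1 TPM. Ep300, a histone acetyltransferase that works with CIITA, was highest at 101 TPM. Nfya, a subunit of the factor that binds the Y box, was at 73.0 TPM and Creb1, which binds beside the X box factor RFX, at 53.7 TPM. Rfxap, an RFX subunit, was the lowest at 4.85, 2.05 and 6.53 TPM. Ciita, at 6.14 TPM, was thus within the range of these factors and near its lower end.

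Genes of the interferon gamma route to Ciita were detected in 9 of 10 cases. Irf1, a factor known to act at the Ciita promoter, was at 141 ± 11.6 TPM, and Irf8, a myeloid regulator of the same family, at 106 ± 34.4 TPM (SD, n = 3). The gene not detected was Ifng itself, listed at 0 in all 3 libraries. Ciita was thus measured at 6.14 TPM beside Irf1 at 141 TPM.

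Downstream of synthesis, the 7 genes of class II antigen processing all reached 1 TPM in every library, with a median of 98.8 TPM. The cathepsin genes Ctsb and Ctsd, lysosomal proteases, were at 440 ± 44.1 and 290 ± 66.2 TPM, and Lgmn, an asparagine-specific endopeptidase, at 134 ± 11.4 TPM (SD, n = 3). Ifi30, a lysosomal thiol reductase, was the lowest at 1.32, 1.90 and 6.43 TPM. Of 7 genes of class II turnover and invariant chain partners, 6 reached 1 TPM in every library. March8 and March1, ubiquitin ligases that remove class II from the surface, were at 40.8 ± 3.49 and 26.2 ± 4.47 TPM. Cd63, a tetraspanin of the class II compartment, was at 29.5, 31.0 and 69.3 TPM, highest in replicate 3, and Cxcr4, a partner of the invariant chain in MIF signalling, was lowest at 2.16 ± 0.29 TPM.

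Co-stimulatory signals are needed beside class II to activate T cells. The genes listed here also include the PD-1 ligands Cd274 and Pdcd1lg2, which are known to inhibit T cells. Of the 6 listed, 5 reached 1 TPM in every library, with a median of 21.4 TPM. Cd274, the ligand PD-L1, was at 193 ± 25.5 TPM, Icam1, an adhesion ligand, at 66.7 ± 11.3 TPM and Cd86 at 23.9 ± 4.47 TPM (SD, n = 3). Pdcd1lg2, the ligand PD-L2, was the lowest at 0.57 ± 0.12 TPM. Each of these medians is a description of the list and not a test.

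**Figure D5:**
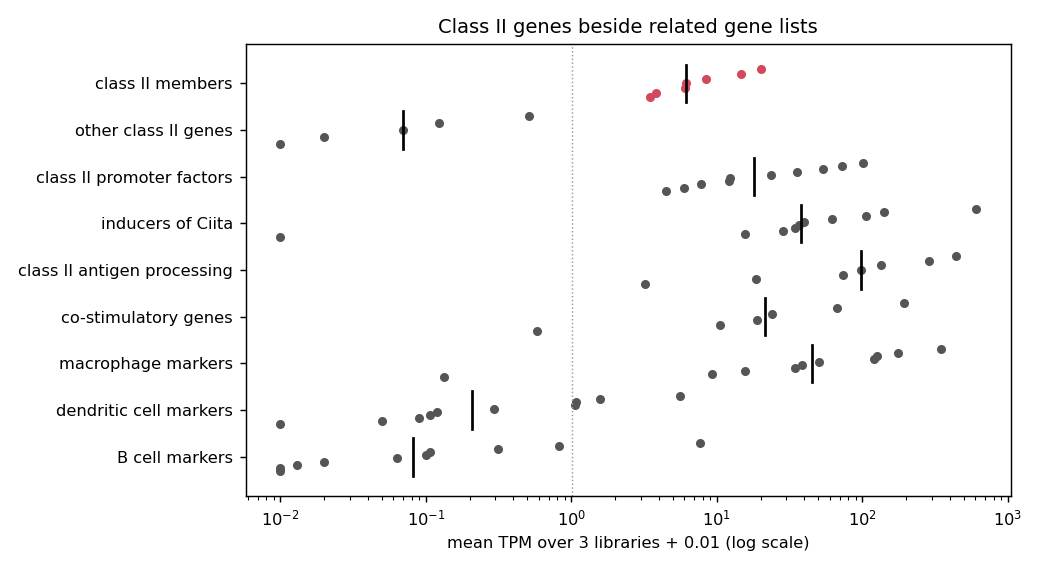
Mean TPM over 3 libraries plus 0.01, on a log scale, for each gene of 9 lists, with the median as a bar and 1 TPM dotted. The 7 members (red) lie between 3.48 and 20.2 TPM, above every other class II gene. Their median of 6.14 TPM is below those of promoter factors (18.1), processing genes (98.8) and the co-stimulatory list with its PD-1 ligands (21.4).

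Genes whose levels followed Cd74 most closely over the 3 libraries were sought among 6000 protein-coding genes at a mean of 10 TPM or more, by Euclidean distance between centred log2(TPM + 1) values. The nearest were Pcmtd1 at a distance of 0.01, Fnip1 at 0.01, Pold3 at 0.02, Snx2 at 0.03 and Rgl1 at 0.03. Pcmtd1, for example, was at 50.3, 39.4 and 42.4 TPM. H2-DMb1 lay at 0.11, Ciita at 0.13, H2-Aa at 0.17 and H2-Ab1 at 0.28, with 3.1%, 4.2%, 7.2% and 21.3% of the genes nearer than each. H2-DMa lay at 0.55 and H2-Eb1 at 0.68, with 68.8% and 84.6% nearer. With 3 libraries, which share depth and composition differences, such likeness is a description.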

How the data were processed

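Per the README deposited with each library, the gene table and an alignment-based transcript table come from reads aligned to the transcriptome of mm10 and GENCODE M21, and a read-based transcript table from the reads. The aligner, its version and whether strand was used are not given in the sources used. The authors deposited expected counts without normalization and TPM scaled over all transcripts of a table. They also deposited bounds of an interval for TPM, a score whose level is not stated and which is not printed. Levels are gene-table TPM, and read-based TPM was summed per gene.

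Expected counts were rounded to whole numbers for edgeR 4.0.16 (R 4.3.3), with genes kept by filterByExpr, scaled by TMM and fitted by quasi-likelihood with an intercept alone. Each gene's dispersion was tested against the trend (upper tail, Benjamini-Hochberg). The fit was tested on simulated data. Other steps used Python 3.11.15, pandas 2.3.3 and scipy 1.17.1. Rows naming no gene held 1.31%, 0.48% and 0.24% of expected counts in replicates 1, 2 and 3 and were left out. Counts of each pair of libraries differed by more than sampling noise (chi-square over its degrees of freedom, 39.1 to 72.0), so none was a duplicate.

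Isoform types, genes and coordinates are from GENCODE M21. Named are the 7 members, the 3 highest and the lowest gene of each list, the region's genes and the 5 genes nearest to Cd74. Some genes that this rule picks are not reported here. Other class II genes, cell type markers, Dexi and isoforms were named after their values were seen. The members, lists and motif letters were chosen with earlier results of these data known. Alternatives were DESeq2 1.42.0 size factors, other filters, pseudocounts, read-based values, rescaling and leaving out each library. Reads carry no molecular identifiers, so intervals and floors cover counting error only.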

Additional observations from a re-analysis of the deposited data

How the results depend on the processing

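No class II member was called over-dispersed by edgeR in any of the 7 alternatives run (adjusted p at least 0.58). Over all genes, the count of 0 became 49 without a filter on low counts and 10 with read-based counts, and ranged from 0 to 73 when 1 library was left out. It was 8 without replicate 1 and 73 without replicate 3, where H2-Aa and H2-Ab1 had unadjusted p of 0.013 and 0.047 (edgeR, adjusted p 0.58 and 0.85). With DESeq2 size factors, and with a mean of at least 10 counts, it stayed at 0. No paired analysis was possible because there is 1 group.

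Mean TPM of the 7 members moved by less than 1 SD in all 21 cases where 1 library was left out. With 3 values such a shift can never reach 1 SD, so this outcome was fixed and is no check of the means. Read-based means were 28.3 TPM for Cd74, 9.88 for Ciita, 8.08 for H2-DMb1 and 5.25 for H2-Eb1, beyond 1 SD, while H2-Aa, H2-Ab1 and H2-DMa stayed within it. Scaled over protein-coding and long non-coding genes of nuclear chromosomes alone, which raises all such genes by 1.38, 1.05 and 1.22 on the log2 scale in replicates 1, 2 and 3, means were 34.9 TPM for Cd74, 14.3 for H2-Aa, 20.1 for H2-Ab1, 8.01 for H2-Eb1, 46.7 for H2-DMa, 8.98 for H2-DMb1 and 14.5 for Ciita. Chosen after seeing the data were protein-coding isoforms alone, with 10.1, 1.95, 1.56, 1.52, 2.99, 2.98 and 4.41 TPM for Cd74, H2-Aa, H2-Ab1, H2-Eb1, H2-DMa, H2-DMb1 and Ciita, H2-DMa without H2-DMa-203 (8.30 TPM), and isoform shares of TPM.

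The log2 ratio of Ciita to H2-Ab1 was reversed in sign by the read-based table, at 0.03. The other mean log2 ratios to H2-Ab1 kept their direction with another pseudocount, by the read-based table and with 1 library left out, though H2-DMb1 was above H2-Ab1 in 2 of 3 libraries by the read-based table. By protein-coding isoforms alone the means of H2-Aa, H2-DMb1 and Ciita were above that of H2-Ab1. By the read-based table the coding mean of H2-Eb1 was above it as well, at 3.70 against 1.34 TPM. Of 14 shares of coding and retained-intron isoforms, 11 moved beyond 1 SD by the read-based table, and the 3 Ciita start shares did not. With genes at a mean of at least 1 TPM, 2 of the 5 genes nearest to Cd74 remained. The causes were not tested. Depth limits H2-Eb1 and H2-DMb1 most, with 138 and 159 counts over 3 libraries.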
